A study of Mus musculus with 6 samples.

Results

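The genes described here are the 10 members of the machinery that writes and erases N6-methyladenosine (m6A) on messenger RNA, namely 8 genes of the methyltransferase complex (Mettl3, Mettl14, Wtap, Virma, Zc3h13, Rbm15, Rbm15b and Cbll1) and 2 demethylase genes (Alkbh5 and Fto). They were chosen by name and not by a threshold on their values, though with earlier results of these data known. They make up 10 of the 37315 gene identifiers counted in each library. Of these, 9 had reads, and Rbm15b was listed at 0 in all 6 libraries.

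In the cell, m6A is placed on nascent transcripts by a complex in which Mettl3 carries the catalytic site, Mettl14 holds the RNA, and Wtap, Virma, Zc3h13, Rbm15 and Cbll1 locate the complex in the nucleus and on its targets. Alkbh5 and Fto are iron- and oxoglutarate-dependent dioxygenases that take methyl groups off, and Fto also acts on the methylated cap of mRNA and on other RNAs. Reader proteins, among them Prrc2a, bind the mark, and in the brain the mark has been tied to neural progenitor timing, glial development and memory.

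The series held 6 RNA-seq libraries of whole hippocampus from C57BL/6J mice aged 4 weeks, 1 library per group, in 3 experiments that each paired a control with an altered genotype. In the Nestin-Cre experiment the control was Prrc2a flox/flox (f/f) and the altered library was Prrc2a flox/flox with nestin-cre, a Cre driver of neural progenitors and of the neurons and glia they give rise to. In the Olig2-Cre experiment the control was again Prrc2a f/f and the altered library was Prrc2a flox/flox with Olig2-cre, a driver of the oligodendroglial lineage that in the study also lowers the dose of Olig2 itself. In the Fto experiment a WT library was paired with an Fto Tg library, from mice in which lentivirus had introduced the mouse Fto coding sequence under the ubiquitin C promoter. Sample titles name both Prrc2a controls WT, but their genotype label is flox/flox, and they are called f/f here. The f/f alleles were thus shared by control and Cre library of the same experiment, and the labels name a Cre driver for the Cre library alone. The labels did not say whether tissue of several mice had been pooled, so that no comparison within a pair has a replicate check.

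Total counts ranged from 18616540 to 35482589 per library, and a gene with 3 counts would have had between 0.0845 and 0.161 CPM, where CPM is a count per 1000000 counts of its library. Prrc2a, the floxed gene, was measured at 434 CPM in the f/f control and 184 CPM in the Nestin-Cre library, at 389 CPM in the f/f control and 346 CPM in the Olig2-Cre library, at 351 CPM in WT and at 334 CPM in Fto Tg. It was lowest by far in the Nestin-Cre library, and both the Olig2-Cre and the Fto Tg library lay just under the 3 controls. Its log2 ratio in the Nestin-Cre pair was -1.24, which is -0.52 relative to the median of all genes there and turned to 0.31 after adjustment for GC content and length. A gene count also takes reads from exons outside the deleted segment, and in whole tissue from cells in which Cre is not active. The Nestin-Cre library stood apart from the other 5. Mitochondrially encoded genes held 26.2% of its counts, against 7.97% to 8.86% elsewhere, and the median gene was at -0.72 on the log2 scale relative to its f/f control. The ratios of the members in that pair are therefore also given relative to this median. Summed CPM of 6 choroid plexus marker genes was 267 in the Nestin-Cre library and 693 in Fto Tg, against 1650 to 2870 in the controls and 3420 in the Olig2-Cre library. The 8 oligodendrocyte markers summed to 6550 CPM with Nestin-Cre and 6750 CPM with Olig2-Cre, against 8480 to 9780 CPM in the controls and 11300 CPM in Fto Tg. The 8 hippocampal markers summed to 2090 CPM with Nestin-Cre, against 1290 to 1560 CPM in the other 5 libraries. The 8 neuronal markers summed to 8910 CPM, against 7900 to 8900 CPM, and the 7 astrocyte markers to 5770 CPM, against 4760 to 5370 CPM. All marker sums given here are on library totals and are not set relative to the median gene at -0.72. The 5 oligodendrocyte progenitor markers summed to 125 CPM with Nestin-Cre, against 346 to 461 CPM in the other 5 libraries, the 6 microglial markers to 154 CPM, against 213 to 261 CPM, and the 5 endothelial markers to 134 CPM, against 185 to 209 CPM. The part of these differences in the results below was not tested, and in whole tissue fewer cells of a type cannot be told apart from less RNA per cell.

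Levels of different genes were compared per length, as RPKM (CPM divided by the exonic length in kilobases), over the 3 controls (mean ± SD, n = 3). Zc3h13, a zinc finger protein that keeps the writer complex in the nucleus, stood highest at 18.9 ± 0.887 RPKM. Alkbh5 followed at 12.4 ± 0.675 RPKM and Fto at 11.7 ± 0.417 RPKM, and these neighbours in the order did not differ beyond their spread. Wtap was at 9.29 ± 0.375 RPKM, Virma at 7.28 ± 0.203 RPKM and Cbll1 at 6.36 ± 0.421 RPKM. The catalytic pair stood near the bottom, with Mettl14 at 3.03 ± 0.2 RPKM and Mettl3 at 2.87 ± 0.334 RPKM, again within their spread of each other. Rbm15 was lowest of the 9 at 1.48 ± 0.133 RPKM. The length used here is the union of all annotated exons, which is 13031 bases for Fto, of which 1833 are coding, and 5076 bases for Mettl3. A short set of exons in use would make the true level per length higher than the value given. The longest annotated transcript was 4707 bases for Fto, 3187 for Wtap and 2159 for Mettl3, well under their exon unions. For Zc3h13 it was 6151 bases and for Mettl14 7197, close to theirs. The order of the genes, and the RPKM ratios between genes given below, therefore depend on the length chosen.

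The 3 controls came from separate experiments and were close to each other for these genes. Expressed as the SD of log2 CPM over the 3 controls, the median spread of the 9 members was 0.08, beside 0.12 over 11737 genes with a mean control level of at least 5 CPM. Virma was the steadiest, between 50.6 and 53.5 CPM, and Mettl3 the most variable, between 12.7 and 16.1 CPM. A gene was called in a pair of libraries when a read-sampling test of those libraries alone, the MARS test that the study used, gave a false discovery rate below 0.001 and the fold was at least 1.2. No member was called between any 2 controls, where the same rule called 13.1% of all genes between both f/f controls, and 17.3% and 7.2% when WT was set against the f/f control of the Nestin-Cre and of the Olig2-Cre experiment. These 3 comparisons share libraries. The rule compares libraries, not genotypes, and these percentages are what it gave where no gene had been deleted or added.

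**Figure D1:**
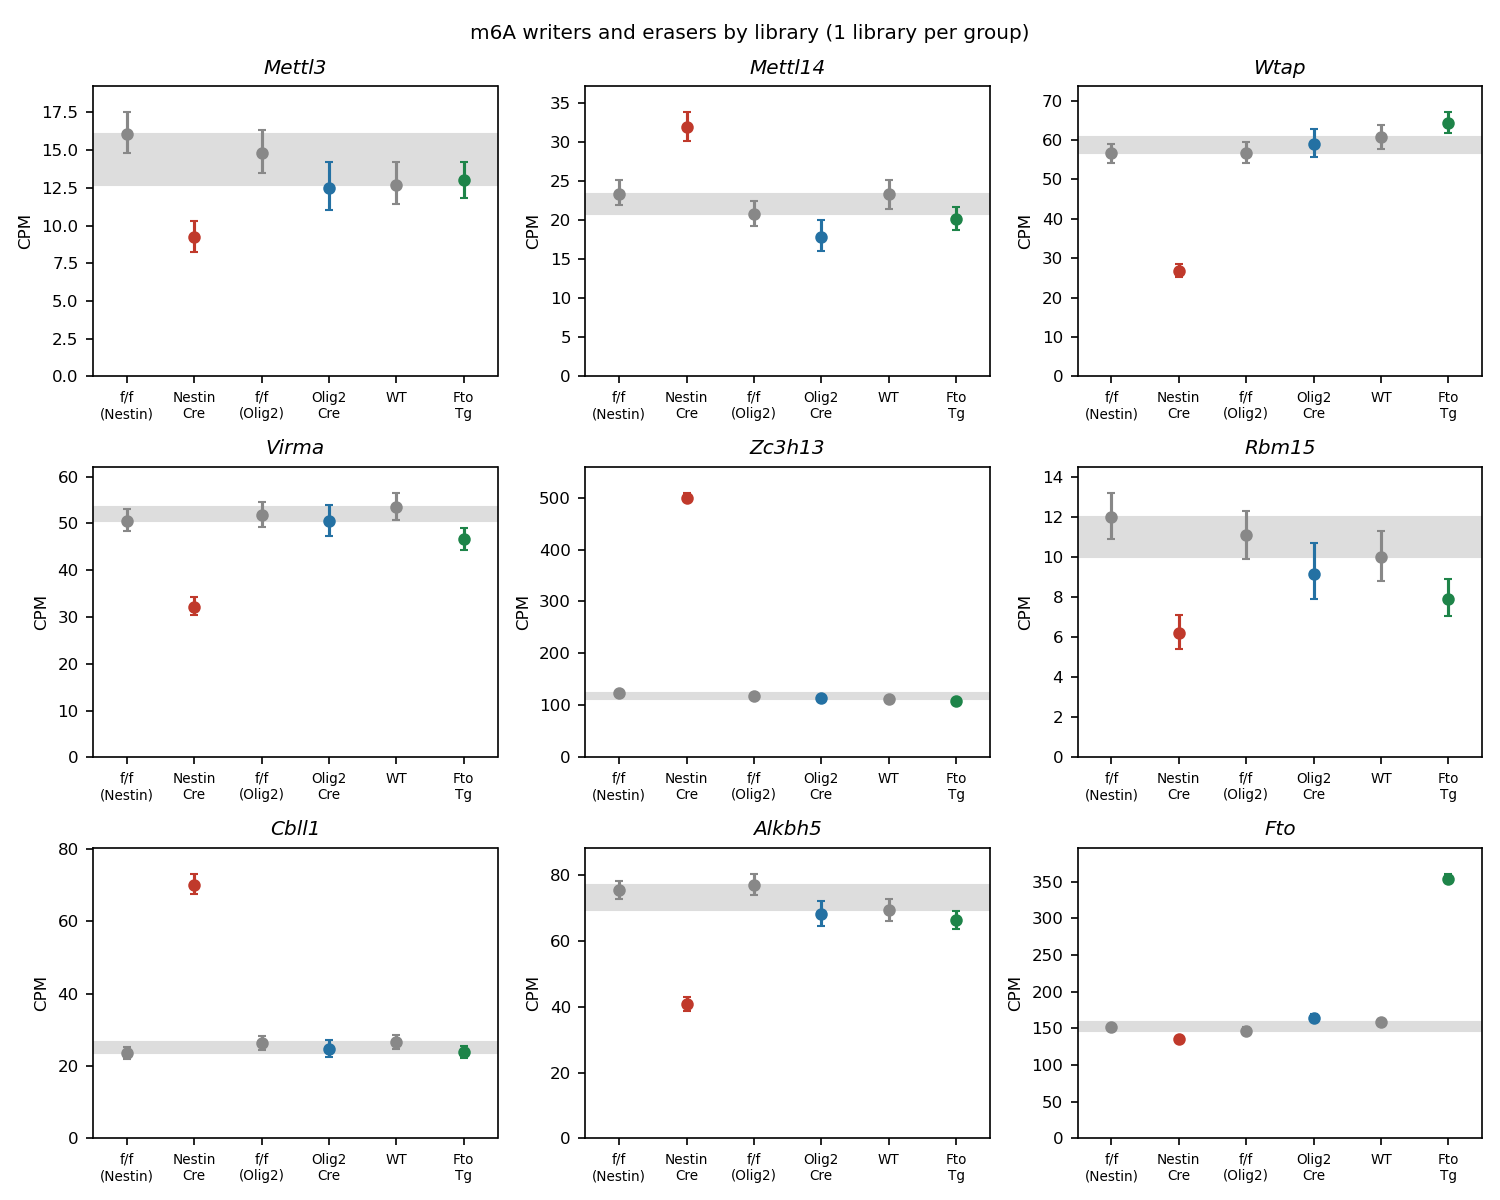
Each panel plots the level of 1 gene in CPM, on a linear axis from 0, in the 6 libraries, with the Wilson 95% counting interval as bars and the range of the 3 controls as a grey band; grey points are controls. Zc3h13 at 500 CPM and Cbll1 at 70.2 CPM stand far above the band in the Nestin-Cre library, and Fto at 354 CPM in the Fto Tg library.

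Fto (ENSMUSG00000055932, chr8:91313525-91668439, plus strand, mm10) was the gene added in the transgenic mice. It was measured at 152 CPM in the f/f control and 136 CPM in the Nestin-Cre library, at 147 CPM in the f/f control and 164 CPM in the Olig2-Cre library, at 158 CPM in WT and at 354 CPM in Fto Tg. The Fto Tg library was the only one far from the rest, and the other 5 lay within 136 to 164 CPM. Its log2 ratio to WT was 1.16, with a 95% counting interval of 1.11 to 1.21, a fold of 2.24, and Fto was called higher. Relative to the mean of the 3 controls the difference was 1.22 on the log2 scale. Of all genes tested in this pair, 6.97% were called higher and 8.51% lower. The count does not separate reads of the transgene, which holds the coding sequence, from reads of the resident gene, and dividing by all exonic bases gave 27.2 RPKM in Fto Tg against 12.1 RPKM in WT.

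The resident Fto gene shares a head-to-head arrangement with Rpgrip1l, a ciliary gene read in the opposite direction, and the RefSeq start sites of the pair have 302 bases between them. The transgene stood under the ubiquitin C promoter, so the bases below belong to the resident gene and not to the transgene. The 250 bases before the Fto start, chr8:91313275-91313524 on the plus strand (RefSeq, GRCm38.p6), are shown because they lie between the starts of both genes.
Fto: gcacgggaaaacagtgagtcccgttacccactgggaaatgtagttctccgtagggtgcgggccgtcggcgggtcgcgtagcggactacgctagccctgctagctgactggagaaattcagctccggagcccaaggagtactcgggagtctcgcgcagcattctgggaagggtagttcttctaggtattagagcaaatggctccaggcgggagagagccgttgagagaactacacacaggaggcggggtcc
This stretch held 59.2% G or C and 18 CG pairs, beside medians of 52.4% and 6 over the 250 bases before 32817 RefSeq start sites. Capitals would mark a match on either strand to a GC box, spelled GGGCGG, to an ETS motif, spelled CCGGAAG, to a TATA box, spelled TATAAA, or to a CAAT box, spelled CCAAT, and there was none, so the run is in lower case throughout. The GC box was held by 32.7% of the 32817 stretches, the ETS motif by 6.9%, the TATA box by 12.4% and the CAAT box by 33.8%. No searched word contains another.

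Rpgrip1l itself was at 28.5 CPM in WT and 24.3 CPM in Fto Tg, a log2 ratio of -0.23 that was not called. Of the 7 genes that flank Fto on the chromosome, 6 had enough reads in this pair, and 0 were called higher and 1 lower. The one called was Chd9, a chromatin remodeller, at 64.5 CPM in WT and 47.7 CPM in Fto Tg, a log2 ratio of -0.44. Chd9 was also called lower in the Olig2-Cre pair, at 64.7 and 49.0 CPM, and higher in the Nestin-Cre pair, at 58.7 and 79.6 CPM. After adjustment for GC content and length, its ratio in the Fto pair was -0.08 and in the Olig2-Cre pair -0.1, both no longer called. Rbl2, at 41.6 and 35.9 CPM, and Aktip, at 72.9 and 81.7 CPM, were not called in the Fto pair, although the same adjustment called Aktip higher at 0.28. Irx3, a homeobox gene downstream of Fto, had 0.397 CPM in WT and 0.086 CPM in Fto Tg and was not called. Irx5 had 0.159 and 0.43 CPM and was not called either.

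**Figure D2:**
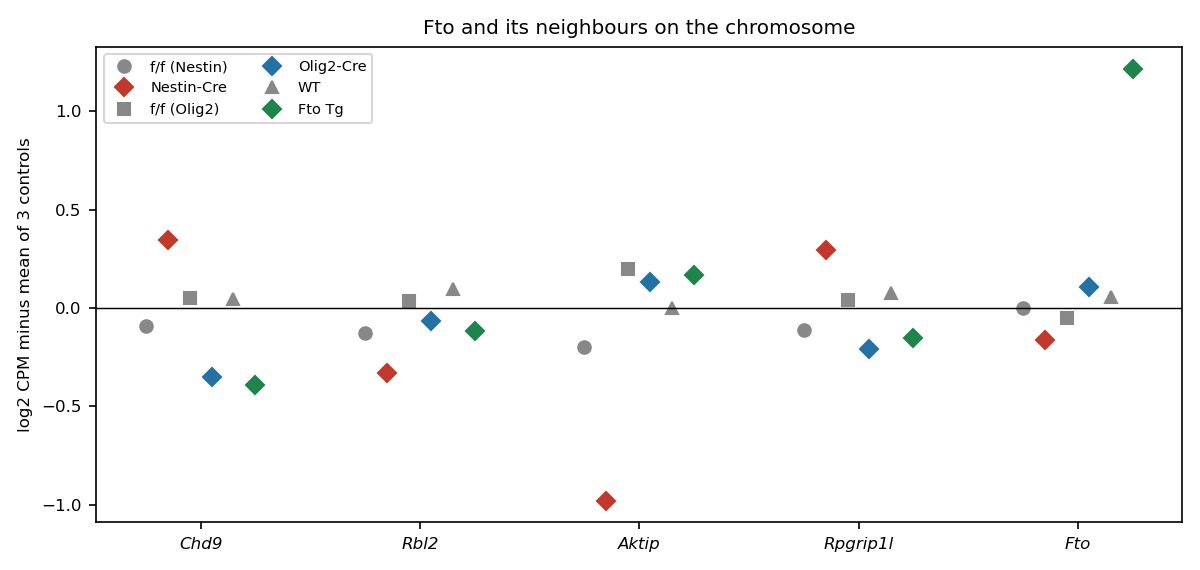
Log2 CPM minus the mean of the 3 controls is plotted for Fto and 4 neighbours, in the order in which they lie on the chromosome, with 1 point per library; grey symbols are controls. In the Fto Tg library Fto lies 1.22 above the control mean, and none of the 4 neighbours is above its highest control.

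None of the other 8 members with reads was called in the Fto pair. Alkbh5 (ENSMUSG00000042650, chr11:60536381-60558512, plus strand), the other demethylase, was at 69.4 CPM in WT and 66.3 CPM in Fto Tg, a log2 ratio of -0.07 with an interval of -0.15 to 0.02. Mettl3 was at 12.7 and 13 CPM, with a log2 ratio of 0.03 and an interval of -0.18 to 0.23. The 8 ratios lay between -0.33 for Rbm15 and 0.08 for Wtap. Over the 9 members the median ratio was -0.07, beside -0.01 for all genes. The counting interval left out 0 for Mettl14 at -0.20, Virma at -0.20, Rbm15 at -0.33 and Cbll1 at -0.16. Each of these 4 ratios missed the rule. Between WT and the f/f control of the Nestin-Cre experiment it left out 0 for Mettl3, Wtap, Zc3h13, Rbm15, Cbll1 and Alkbh5. There it held 0 for Mettl14 and Virma and began at 0.0 for Fto. Rbm15 (ENSMUSG00000048109, chr3:107325421-107333673, minus strand), an RNA-binding protein that brings the complex to its targets, had 252 counts in WT and 277 in Fto Tg, the fewest of the 9. Its level in the Fto Tg library, 7.94 CPM, lay under all 3 controls at 10 to 12 CPM.

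**Figure D3:**
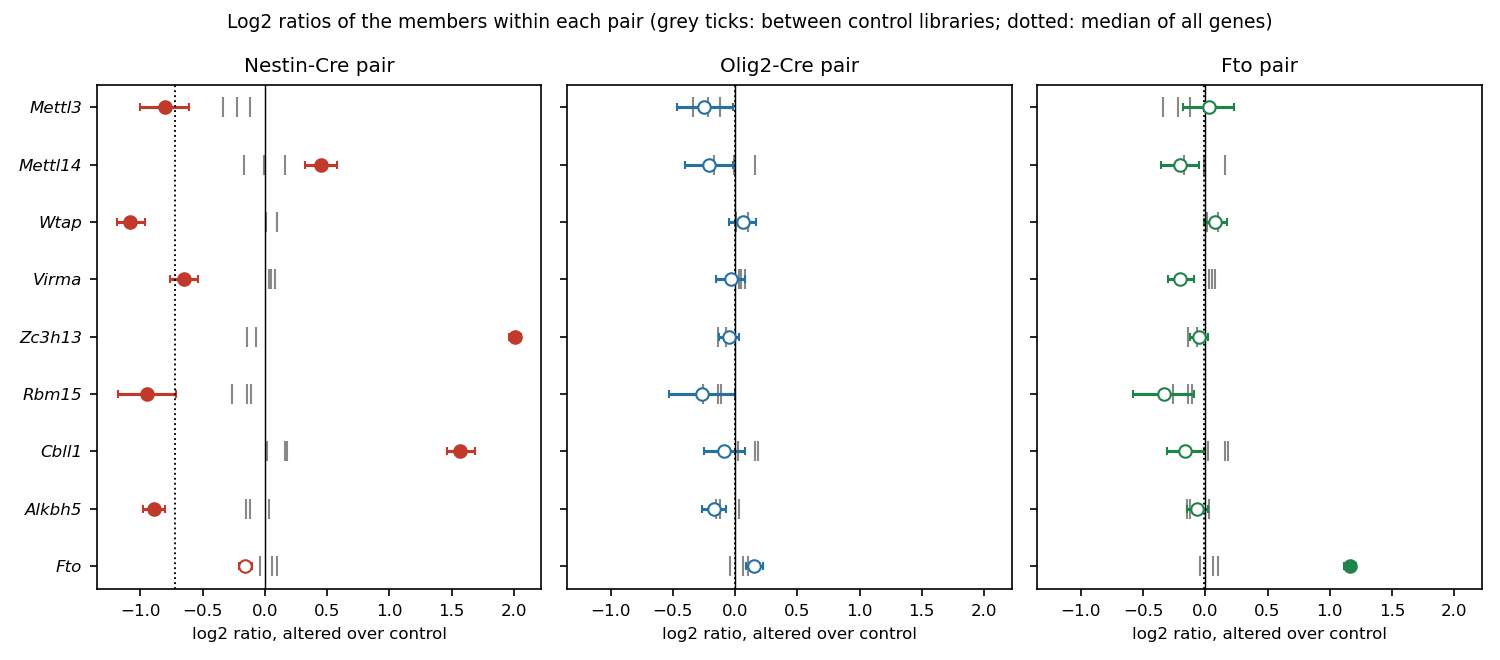
Log2 ratios of the 9 members in the 3 pairs are plotted with 95% counting intervals; filled points were called, grey ticks are the ratios between controls, and dotted lines the median of all genes. In the Nestin-Cre pair 3 members lie to the right of 0 and 5 called members to the left, near the median of -0.72, whereas in the Fto pair only Fto is filled.

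In the Nestin-Cre pair 8 of the 9 members were called, 3 higher and 5 lower, and 11.5% of all genes were called higher and 53.4% lower. The 3 higher members were Zc3h13, Cbll1 and Mettl14. Their promoters are shown because these 3 members moved against the general direction of this pair. RefSeq gave a stretch for Zc3h13 (chr14:75284123-75284372, plus strand) and Cbll1 (chr12:31499617-31499866, minus strand), and capitals mark the same motifs as above on either strand.
Zc3h13: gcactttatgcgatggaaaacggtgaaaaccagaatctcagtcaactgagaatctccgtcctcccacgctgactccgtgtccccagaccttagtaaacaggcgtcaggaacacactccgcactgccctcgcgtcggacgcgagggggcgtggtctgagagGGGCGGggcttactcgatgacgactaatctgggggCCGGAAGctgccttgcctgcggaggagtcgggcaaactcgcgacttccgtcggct
Cbll1: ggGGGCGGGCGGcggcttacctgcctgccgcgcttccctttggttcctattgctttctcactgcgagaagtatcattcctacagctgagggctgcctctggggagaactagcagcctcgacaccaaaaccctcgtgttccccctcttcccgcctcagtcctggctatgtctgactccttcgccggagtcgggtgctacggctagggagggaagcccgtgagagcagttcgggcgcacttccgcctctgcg
The Zc3h13 stretch held 1 GC box and 1 ETS motif, and the Cbll1 stretch 2 GC box matches that overlap each other. They held 60.4% and 62.8% G or C, and 23 and 18 CG pairs. GC boxes were found in 32.7% of all such stretches and the ETS motif in 6.9%. Neither stretch held a CAAT or a TATA box.

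Zc3h13 (ENSMUSG00000022000, chr14:75284373-75344426, plus strand) had 17388 counts in the Nestin-Cre library, or 500.0 CPM. In the 5 other libraries it lay between 109 and 124 CPM, so that the Nestin-Cre library did not overlap the rest. Of all genes, 17.7% lay above all 3 controls in that library. The log2 ratio of Zc3h13 to the f/f control was 2.01, with an interval of 1.96 to 2.06, a fold of 4.03. The ratio was 2.73 relative to the median of all genes and 2.66 after adjustment for GC content and length. Zc3h13 also had the largest distance of any member from the control mean, 2.08 on the log2 scale.

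Cbll1 (ENSMUSG00000020659, chr12:31484829-31499616, minus strand), also known as Hakai, is a RING-type ubiquitin ligase that sits with Wtap. It was measured at 23.6 CPM in the f/f control and 70.2 CPM in the Nestin-Cre library, and between 23.8 and 26.6 CPM in the other 4 libraries. Its log2 ratio was 1.57, with an interval of 1.46 to 1.69, and it was 2.29 relative to the median of all genes and 1.78 after adjustment for GC content and length. Of its 4007 exonic bases, 704 also lie in exons of Gm29542 on the opposite strand, a gene not analysed here, and unstranded counting cannot tell the reads of the pair apart.

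Mettl14 (ENSMUSG00000028114, chr3:123368297-123386108, minus strand) was at 23.4 CPM in the f/f control and 31.9 CPM in the Nestin-Cre library, and between 17.9 and 23.3 CPM in the other 4. The log2 ratio was 0.45, with an interval of 0.32 to 0.58, and it would not have passed a fold of 1.5. Mettl3 (ENSMUSG00000022160, chr14:52294841-52305128, minus strand), its catalytic partner, was at 16.1 CPM in the f/f control and 9.21 CPM in the Nestin-Cre library, and between 12.5 and 14.8 CPM in the other 4. It was called lower, with a log2 ratio of -0.80 and an interval of -1.0 to -0.61. Relative to the median of all genes Mettl14 was at 1.16 and Mettl3 at -0.09, and after adjustment for GC content and length Mettl3 was at -0.16 and no longer called. The counting ignored strand, and 933 of the 5076 exonic bases of Mettl3 also lie in exons of Tox4 on the opposite strand, where a read could not be given to either gene.

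The remaining writer subunits were called lower. Wtap (ENSMUSG00000060475, chr17:12966796-12994169, minus strand), the adaptor that brings Mettl3 and Mettl14 to nuclear speckles, was at 56.6 CPM in the f/f control and 26.8 CPM with Nestin-Cre, and between 56.8 and 64.3 CPM in the other 4 libraries. Its log2 ratio of -1.08, with an interval of -1.19 to -0.96, was the lowest of the 9. Virma (ENSMUSG00000040720, chr4:11485958-11550684, plus strand), the large scaffold subunit, was at 50.6 and 32.2 CPM, with a log2 ratio of -0.65 and an interval of -0.76 to -0.54. Rbm15 was at 12 and 6.21 CPM, with a log2 ratio of -0.95 and an interval of -1.18 to -0.71. In each of these 3 genes the Nestin-Cre library lay below all 5 other libraries. In that library 65.6% of all genes lay below all 3 controls. Relative to the median of all genes Wtap was at -0.36, Rbm15 at -0.23 and Virma at 0.07, so that Virma changed sign on that scale.

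Of the erasers, Alkbh5 was called lower and Fto was not. Alkbh5 was at 75.5 CPM in the f/f control and 40.8 CPM in the Nestin-Cre library, with a log2 ratio of -0.89 and an interval of -0.98 to -0.80. Fto was at 152 and 136 CPM, a log2 ratio of -0.16 with an interval of -0.21 to -0.10. Relative to the median of all genes Alkbh5 was at -0.17 and Fto at 0.56.

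The size of the ratios of the called-lower members, and whether they were called, depended on the scale. Their direction did so for Virma alone. The whole-gene median of -0.72 became -0.03 with trimmed mean (TMM) factors and -0.4 when mitochondrially encoded genes were left out of the totals. With TMM factors 4 members were called higher, Fto at 0.53 in addition to the 3 above, and 1 was called lower, Wtap at -0.39, while Virma turned to 0.04. Zc3h13, Cbll1 and Mettl14 stayed higher at 2.70, 2.26 and 1.13. When counts were compared by an exact test that took its dispersion from the 3 controls, the same 3 were called higher and 0 members lower.

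**Figure D4:**
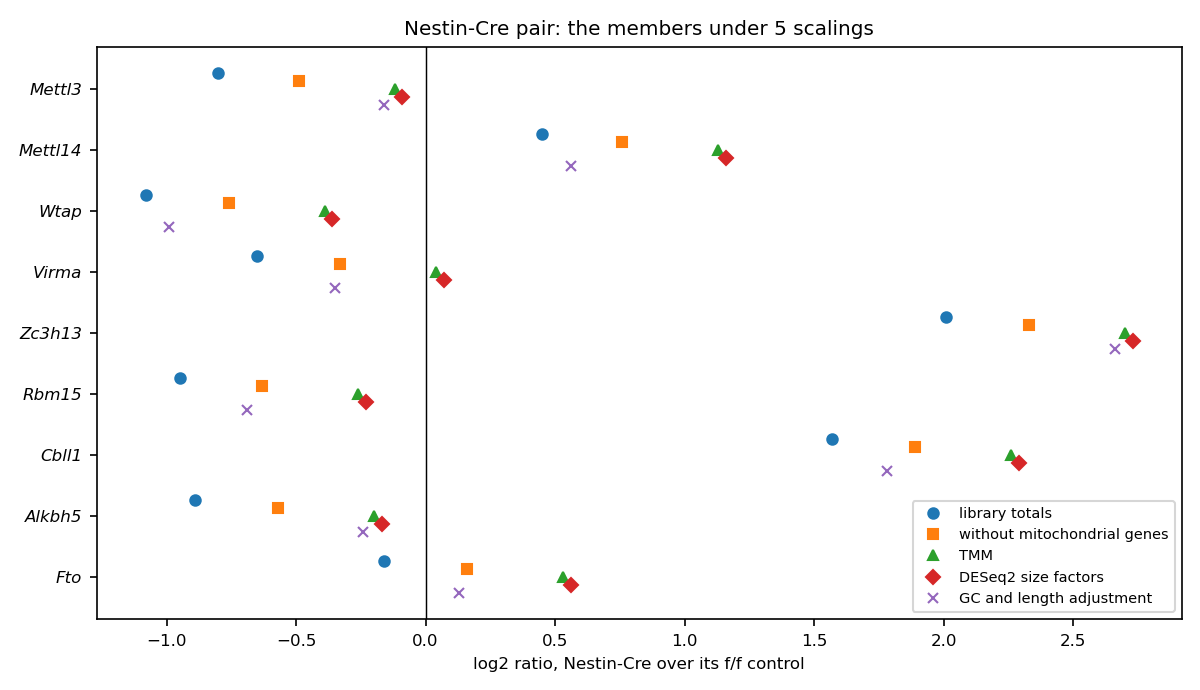
Log2 ratios of the 9 members in the Nestin-Cre pair are plotted under 5 scalings of the counts, 1 symbol per scaling. Zc3h13, Cbll1 and Mettl14 stay to the right of 0 under all 5, Mettl3, Wtap, Rbm15 and Alkbh5 to the left, and Virma and Fto cross 0.

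Ratios between members inside 1 library do not depend on how libraries are scaled, but they were not adjusted for GC content and length. In the Nestin-Cre pair that adjustment brought Mettl14 and Mettl3 closer, from 0.45 and -0.80 to 0.56 and -0.16. It left Zc3h13 and Cbll1 further from Wtap, with Zc3h13 at 2.66, Cbll1 at 1.78 and Wtap at -0.99. The ratio of Mettl14 to Mettl3, in RPKM, was 2.37 in the Nestin-Cre library and between 0.957 and 1.25 in the other 5. The ratio of Zc3h13 to Wtap was 18.5 in the Nestin-Cre library and between 1.69 and 2.18 in the other 5. Cbll1 to Wtap was 4.08, against 0.579 to 0.722. Among the 7 writers with reads, Zc3h13 held 70.5% of the summed RPKM in the Nestin-Cre library and 36.8% to 39.7% elsewhere, while Mettl3 held 1.61% and 5.14% to 6.38%. Virma to Wtap moved less, with 1.05 against 0.635 to 0.798.

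The balance of erasers to the catalytic pair, taken as the RPKM of Fto plus Alkbh5 over that of Mettl3 plus Mettl14, was 4.09 ± 0.218 in the controls (SD, n = 3). It was 7.25 in Fto Tg, 4.92 with Olig2-Cre and 2.82 with Nestin-Cre. Between the erasers, Fto to Alkbh5 was 0.95 ± 0.0872 in the controls (SD, n = 3), 1.1 with Olig2-Cre, 1.54 with Nestin-Cre and 2.45 in Fto Tg. Fto Tg was thus highest in both ratios, and Nestin-Cre lay below all controls in the former and above them in the latter. Neither ratio was adjusted for GC content and length, which in the Nestin-Cre pair moved Alkbh5 from -0.89 to -0.24 and Fto from -0.16 to 0.13. These are RNA ratios, and neither protein nor m6A itself was measured in these libraries.

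**Figure D5:**
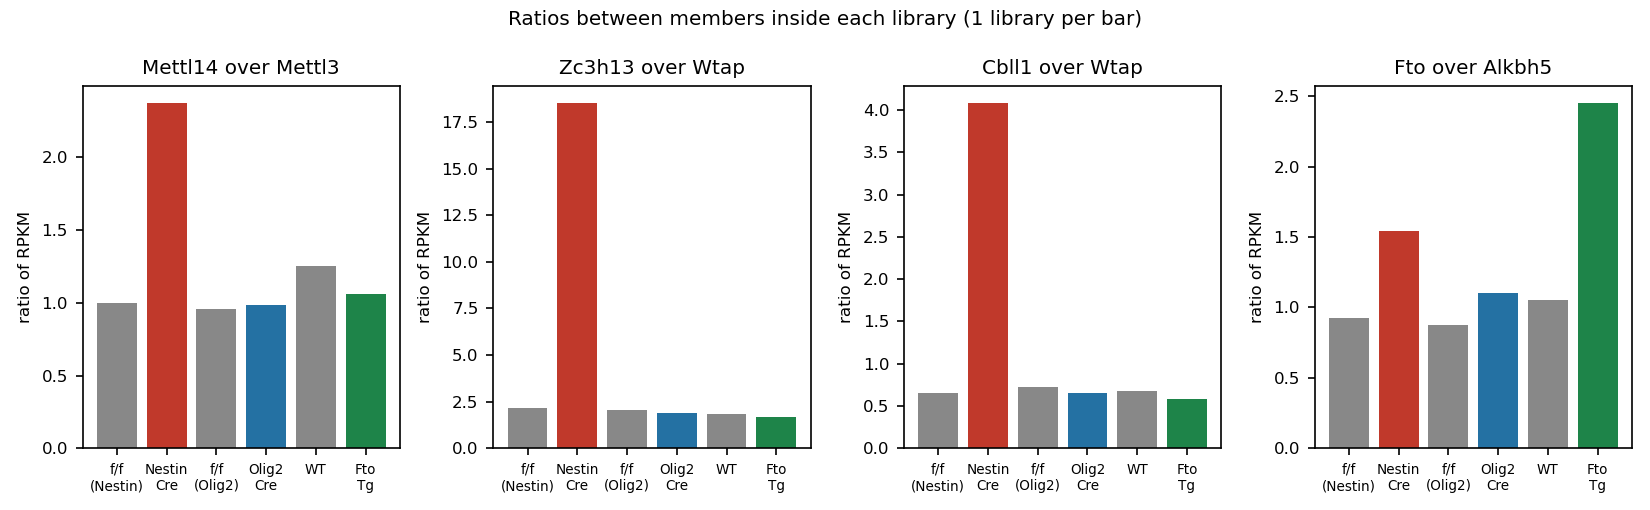
Bars from 0 give the ratio of RPKM between 2 members in each library, 1 library per bar, with controls in grey. The Nestin-Cre library stands out for Mettl14 over Mettl3 at 2.37, Zc3h13 over Wtap at 18.5 and Cbll1 over Wtap at 4.08, and the Fto Tg library for Fto over Alkbh5 at 2.45.

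In the Olig2-Cre pair 0 of the 9 members were called, where 4.95% of all genes were called higher and 6.91% lower. The ratios lay between -0.27 for Rbm15 and 0.15 for Fto, and their median was -0.09, beside 0.0 for all genes. Zc3h13, at 118 CPM in the f/f control and 114 CPM in the Olig2-Cre library, had a log2 ratio of -0.05 with an interval of -0.13 to 0.03. Cbll1 was at 26.3 and 24.8 CPM, with a log2 ratio of -0.09 and an interval of -0.25 to 0.08. Both intervals lay below the ratios of the Nestin-Cre pair, 2.01 for Zc3h13 and 1.57 for Cbll1. They cover counting error between these libraries only and no variation between mice. Whether either gene changed within the oligodendroglial lineage alone was not tested in whole tissue. The counting interval left out 0 for Mettl3 at -0.25, Mettl14 at -0.21, Alkbh5 at -0.17 and Fto at 0.15, and none passed the rule. Between both f/f controls it also left out 0, for Mettl14 at -0.17 and Cbll1 at 0.16. As given above, it did so for more members between WT and the f/f control of the Nestin-Cre experiment. With the Nestin-Cre experiment's f/f control in its place, Mettl14 was at -0.38 and was called lower. This was the smallest library, with 334 counts of Mettl14 and 171 of Rbm15.

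Set against the range of the 3 controls, the Nestin-Cre library had 3 members above and 6 below, and none inside. Of 20506 genes with at least 10 counts over the 6 libraries, 17.7% lay above and 65.6% below all 3 controls in that library. The Olig2-Cre library had 1 member above, Fto, and 5 below, beside 28.2% and 29.8% of all genes. The Fto Tg library had 2 above, Fto and Wtap, and 5 below, beside 27.5% and 29.1%. Rbm15 and Alkbh5 lay below all controls in each of the 3 altered libraries, and so did Virma. With TMM factors this held for Alkbh5 but not for Rbm15 and Virma, and with DESeq2 size factors for none of them. The share of all genes below the controls in all 3 altered libraries was not computed. The 3 libraries were also set against the same 3 controls, so this overlap is a description only. In Virma the Olig2-Cre value, 50.5 CPM, was within counting error of the lowest control at 50.6 CPM. Mettl14 was below in the Olig2-Cre and Fto Tg libraries, at 17.9 and 20.2 CPM against 20.8 to 23.4 CPM, and above in the Nestin-Cre library.

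Taking both Cre libraries against both f/f libraries, the only contrast with 2 libraries per arm, edgeR's quasi-likelihood test called 0 members and 0.0% of the 16921 genes tested at an adjusted p below 0.05. Unadjusted p was below 0.05 for 143 genes and for 0 members. Zc3h13 had the lowest p among the members, 0.0907, with a log2 difference of 1.93 and a standard error of 0.92 (adjusted p = 0.955, edgeR quasi-likelihood), and it was higher in 1 of the 2 Cre libraries. Cbll1 had a log2 difference of 1.47 and a standard error of 0.73 (adjusted p = 0.955, edgeR quasi-likelihood). DESeq2 called 3 genes and no member in the same contrast. The biological coefficient of variation was 0.399, against 0.147 over the 3 controls. Without the Olig2-Cre library, so that the Nestin-Cre library alone stood against 2 f/f libraries and was assumed to vary like them, 8480 genes and 4 members (Mettl14, Zc3h13, Cbll1 and Fto) had an adjusted p below 0.05.

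Other m6A genes and their relatives were examined as lists. Of 6 further m6A methyltransferase genes, 1 was called higher and 4 lower in the Nestin-Cre pair, 1 higher and 0 lower in the Olig2-Cre pair and 0 in the Fto pair. In the Nestin-Cre pair 11.5% of all genes were called higher and 53.4% lower, and with TMM factors 2 of the 6 were higher and 2 lower. Pcif1, which methylates the cap-adjacent adenosine, was at 41.2 and 13 CPM in the Nestin-Cre pair. Trmt112, the activator of several RNA and protein methyltransferases, was called lower in the Nestin-Cre pair, at 10.5 and 3.45 CPM, and higher in the Olig2-Cre pair, at 8.75 and 13.4 CPM, and both calls ended after adjustment for GC content and length. Mettl4, at 6.79 and 4.84 CPM, had the largest ratio of the list in the Fto pair, -0.49, and was not called there.

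Of the 7 other AlkB dioxygenases, relatives of Alkbh5 and Fto, 1 was called higher and 5 lower in the Nestin-Cre pair, beside the same 11.5% and 53.4% of all genes. The counts were 2 higher and 4 lower with TMM factors, and 2 higher and 3 lower once GC content and length were adjusted for. Alkbh7, a mitochondrial member of the family, was at 13 CPM in the f/f control and 0.719 CPM with Nestin-Cre, a log2 ratio of -4.15, and at -2.7 after adjustment for GC content and length. In the Fto pair Alkbh7 was called higher, at 10.4 and 14.4 CPM, and was no longer called at 0.23 after that adjustment. Alkbh8, a tRNA-modifying enzyme, was called lower in the Fto pair, at 22.7 and 13.7 CPM, and in the Olig2-Cre pair, at 21.6 and 15.6 CPM, and higher in the Nestin-Cre pair, at 22.1 and 38.6 CPM. Its ratio in the Fto pair was -0.73 and remained called at -0.49 after adjustment for GC content and length, whereas that in the Olig2-Cre pair went from -0.46 to -0.26 and was no longer called. The list gave 1 higher and 1 lower in the Fto pair, and 0 higher and 1 lower in the Olig2-Cre pair.

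Of 15 reader genes, 5 were called higher and 6 lower in the Nestin-Cre pair, beside 11.5% and 53.4% of all genes, and the lower ones include Prrc2a, the gene deleted there, whose ratio turned to 0.31 and was called higher after adjustment for GC content and length. In the Olig2-Cre pair 0 of the 15 were called higher and 3 lower, and in the Fto pair 0 of the 14 with enough reads were called higher and 3 lower, beside 4.95% and 6.91%, and 6.97% and 8.51%, of all genes. After adjustment for GC content and length 7 were higher and 4 lower in the Nestin-Cre pair, 1 higher and 1 lower in the Olig2-Cre pair, and 0 higher and 1 lower in the Fto pair. Prrc2c, a paralogue of Prrc2a, was called lower in the Fto pair, at 137 and 76.6 CPM, and in the Olig2-Cre pair, at 139 and 90.5 CPM, and higher in the Nestin-Cre pair, at 178 and 457 CPM. Its log2 ratio was -0.84 in the Fto pair and -0.57 after adjustment for GC content and length, still called. Prrc2b was called lower in all 3 pairs, with log2 ratios of -0.64 (Nestin-Cre), -0.29 (Olig2-Cre) and -0.30 (Fto). That adjustment ended the call in the Fto and Olig2-Cre pairs and turned the ratio to 0.27 in the Nestin-Cre pair. Ythdf3, a cytoplasmic reader, was called lower in the Nestin-Cre pair at 92.7 and 62.1 CPM. There TMM factors turned the ratio to 0.11, while adjustment for GC content and length left it called lower at -0.51. In the Fto pair Ythdf3 was called lower at 119 and 98.2 CPM, and the adjusted ratio of -0.1 was no longer called. With TMM factors the Nestin-Cre pair gave 6 readers higher and 4 lower. Igf2bp1 was near the detection limit, at 0.338 and 0.0575 CPM in the Nestin-Cre pair, and was not called.

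Of 6 genes listed under methyl donor metabolism (Mat2a, Mat2b, Ahcy, Ahcyl1, Ahcyl2 and Adk), all 6 were called lower in the Nestin-Cre pair, where 53.4% of all genes were. With TMM factors 4 of the 6 were lower. Mat2b, the regulatory subunit of methionine adenosyltransferase, was at 96.0 and 18.9 CPM, or -2.34 on the log2 scale. The 1 call in the Olig2-Cre pair was Ahcy, the hydrolase of S-adenosylhomocysteine, higher at 16.9 and 21.8 CPM, and it was not called with TMM factors. None was called in the Fto pair, where Adk had the largest ratio of the list, 0.20, at 51.0 and 58.7 CPM. Adjustment for GC content and length left all 6 lower in the Nestin-Cre pair. It called 2 higher in the Olig2-Cre pair, Ahcyl2 at 0.28 and Adk at 0.37, and 1 in the Fto pair, Adk at 0.47. Median ratios of this list were -1.37, 0.05 and 0.03 in the Nestin-Cre, Olig2-Cre and Fto pairs, beside -0.72, 0.0 and -0.01 for all genes.

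The genes whose pattern over the 6 libraries came closest to a member were found among 10015 genes with a mean of at least 10 CPM, by the root mean square difference of centred log2 CPM. For Mettl3 these included Sptb and Dot1l, each at 0.04. Dot1l, a histone methyltransferase, was at 104 and 56.6 CPM in the Nestin-Cre pair and 83.1 and 78.0 CPM in the Fto pair. For Mettl14 they were Fam98a, Kif5c and Cdadc1, each at 0.05. Kif5c, a neuronal kinesin, was at 998 CPM in the f/f control and 1360 CPM in the Nestin-Cre library. For Fto no gene came as close, and the nearest were Bex1 at 0.25, Tipin at 0.27 and Gm14326 at 0.27. Bex1 was at 17.1 CPM in WT and 26.8 CPM in Fto Tg. The nearest member to Mettl3 was Alkbh5 at 0.11, and the nearest to Mettl14 was Cbll1 at 0.36. With 6 libraries, of which 1 stands apart, these distances are a description only.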

How the data were processed

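Hippocampal mRNA of 6 libraries was sequenced on an Illumina HiSeq3000. The deposited files hold raw whole-number counts per Ensembl gene, which the authors made by trimming with Cutadapt and Trimmomatic, alignment to mm10 with TopHat, a mapping-quality minimum of 20 and HTSeq in union mode without strand. The processing notes name HTSeq 0.6 and TopHat2 2.0.9. Reads shared between genes or places are lost by this counting, and whether reads were single or paired is not settled in the sources used here.

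From these counts, CPM on library totals, RPKM (exon union, GENCODE M21, GRCm38) and Wilson 95% intervals were computed. Like the log2 ratio intervals, the Wilson intervals cover counting error only and take in no variation between mice. As PCR copies are not independent, both may be too narrow even for counting error. Pairs were compared by the MARS formulas of DEGseq over all genes with at least 10 counts, prior count 0.5, with Benjamini-Hochberg adjustment. That test compares 2 libraries, so no p is printed. The contrast of 2 Cre with 2 f/f libraries used edgeR 4.0.16, with DESeq2 1.42.0 as an alternative, and its p-values measure only the spread between these libraries. Both procedures were tested on simulated data. The annotation gave GC content for 96.9% of genes with reads. Alternatives were other size factors, no mitochondrial genes, GC and length adjustment by a spline within the pair (which also centres the ratios), the other f/f control, prior 5, other count minimums, fold 1.5, an edgeR exact test with control dispersion (false discovery rate below 0.05) and leaving out libraries.

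All 10 members, Prrc2a and flanking genes were named. From other lists, genes called alike in at least 2 pairs and the largest ratio per pair were named, and the 3 genes nearest in pattern for Fto, Mettl3 and Mettl14, of which 1 is not reported here. The members and lists were chosen with earlier results of these data known.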

Additional observations from a re-analysis of the deposited data

Results flagged for a closer look

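In 2 members the log2 ratio pointed in opposite directions with the 2 Cre drivers, with both counting intervals off 0. Mettl14 was at 0.45 in the Nestin-Cre pair and -0.21 in the Olig2-Cre pair. For Mettl14 both f/f controls already differed by -0.17, with an interval of -0.32 to -0.02 that also left out 0. Its Olig2-Cre ratio shrank to -0.04 under the GC and length adjustment, and was -0.38 against the other f/f control. Fto was at -0.16 in the Nestin-Cre pair and 0.15 in the Olig2-Cre pair, and under TMM factors both of its ratios were above 0, at 0.53 and 0.14. With 1 library per group these differences were not tested.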

How the results depend on the processing

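In the Nestin-Cre pair, calls of 3 members higher held between 2 and 4 under all 10 alternatives. The 5 called lower became 1 with TMM factors, 1 with DESeq2 size factors, 3 after GC and length adjustment and 0 in the exact test with control dispersion. Virma turned to 0.04, 0.07 and 0.04 under TMM, DESeq2 size factors and the exact test, Fto to 0.53 and 0.56 under TMM and DESeq2 size factors, and Prrc2a to 0.31 after GC and length adjustment. GC and length adjustment also called 1 member higher in the Olig2-Cre pair (Fto at 0.35), 2 in the Fto pair (Fto, and Wtap at 0.27), and 1 between the f/f controls. The other f/f control gave 1 member lower in the Olig2-Cre pair. The log2 ratio of Fto in the Fto pair stayed between 1.16 and 1.38. With DESeq2 size factors the Nestin-Cre library had 5 members above and 2 below all controls, with TMM 2 below, and the Olig2-Cre library 2 below with DESeq2 size factors. Leaving out each control in turn gave 1 to 2 members above in the Olig2-Cre library, with 2 when WT was left out. For both Cre against both f/f libraries, DESeq2 called 3 genes and the fit with experiment as a block 2, and leaving out each library in turn gave 0 to 8480 genes and 0 to 4 members, the upper values without the Olig2-Cre library. The causes were not tested. Depth limits Rbm15 most, with 171 to 425 counts, and 1 library per group leaves the variation between mice unknown.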
